A study of Mus musculus with 6 samples.

Results

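The genes described here are 31 mouse genes of sterol and fatty acid synthesis that are targets or regulators of the sterol regulatory element-binding proteins (SREBPs). They were taken from the 54532 genes of the deposited FPKM table by gene symbol, and each symbol matched 1 row. The sterol arm held 19 genes, the fatty acid arm 7 and the regulators of the pathway 5. The RNA-seq libraries came from mouse embryonic fibroblasts expressing the adenoviral oncoprotein E1A and the activated Ras protein HRasV12. In 3 libraries, shMettl3_dox, the cells carried a hairpin against Mettl3, the methyltransferase that places N6-methyladenosine on mRNA. In the other 3, shLuc_dox, they carried the control hairpin, labelled shLuc. Cells of both groups carried both oncogenes and received doxorubicin, a topoisomerase II poison, at 0.2 ug/ml for 6 hours. No library without doxorubicin was analysed here, so the comparison asks how the knockdown differed from the control hairpin in drug-treated cells only. The labels do not say whether replicates were separate cultures, so the p-values measure the spread between these libraries, which may be technical. Only 1 hairpin per target is labelled.

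SREBPs are made as membrane proteins of the endoplasmic reticulum, where they are bound to the escort protein Scap. When membrane sterol is low, Scap carries them to the Golgi, where proteases release the active transcription factor. When sterol is high, the Insig proteins hold Scap in the endoplasmic reticulum. Srebf2 is best known for driving sterol synthesis genes and Srebf1 for driving fatty acid synthesis genes. Insig1 is itself an SREBP target, so its mRNA is often read as a measure of SREBP activity.

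Mettl3 was at 1.29, 1.53 and 1.65 FPKM in the shMettl3_dox libraries, against 2.47, 3.14 and 2.59 FPKM in the shLuc_dox libraries. FPKM are read counts scaled to gene length and library depth. Recovered reads numbered 17652952 to 25464040 per shMettl3_dox library and 17001640 to 20132540 per shLuc_dox library. On the second principal component of all tested genes, which held 18.0% of the variance, shMettl3_dox replicate 3 was at -18.5, while the other 5 libraries lay between -4.28 and 13.4. Of 8 fibroblast markers, Vim, Fn1 and Pdgfrb had a mean of at least 1 FPKM. The collagen genes Col1a1, Col1a2 and Col3a1, with Thy1 and S100a4, averaged under 1 FPKM in both groups. The summed level of the 8 was 776 to 851 FPKM in shMettl3_dox and 891 to 944 FPKM in shLuc_dox. The 5 epithelial markers summed to 29.3 to 35.8 FPKM in shMettl3_dox and 49.2 to 52.8 FPKM in shLuc_dox, most of it Krt18. Among them Epcam averaged 2.66 FPKM in shMettl3_dox and 4.14 FPKM in shLuc_dox, and Cdh1 was near 0. The 5 macrophage and leukocyte markers summed to 9.47 to 11.1 FPKM in shMettl3_dox and 15.4 to 18.1 FPKM in shLuc_dox, nearly all of it Cd68, and Ptprc and Adgre1 were near 0 and Tyrobp at 0. The 6 adipocyte markers, whose cells make fatty acids at a high rate, summed to 1.17 to 1.57 FPKM in shMettl3_dox and 1.30 to 1.73 FPKM in shLuc_dox. Most of that sum was Pparg (mean 1.38 FPKM in shMettl3_dox and 1.37 FPKM in shLuc_dox), with Adipoq and Lep at 0. The 4 endothelial markers summed to under 1 FPKM in each library, and the 4 muscle markers to 2.58 to 3.35 FPKM in shMettl3_dox and 5.95 to 6.89 FPKM in shLuc_dox, most of it Des. The part that these marker differences have in the results was not tested. In bulk libraries fewer cells of a kind and less RNA per cell cannot be told apart.

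Differences in the pathway went in both directions, more of them down than up. Of the 31 genes, 30 averaged 1 FPKM or more and were tested with limma on log2(FPKM + 1), with p-values adjusted over all 12098 genes tested. In shMettl3_dox 8 fell (26.7%), 2 rose (6.67%) and 20 did not pass an adjusted p of 0.05, beside 13.5% lower and 14.6% higher (28.1% either way) among all genes tested. With the libraries scaled on protein-coding genes, 1926 of all genes were lower and 1263 higher, in place of 1633 and 1763. The falls were Insig1, Srebf2, Scd2, Fasn, Acss2, Acat2, Idi1 and Msmo1, and the rises were Mvk and Elovl6. Whatever the p-value, 22 of the 30 differences were below 0 and 8 above, beside 5705 and 6393 of all genes tested. The changes were small: the median change of the 30 in log2(FPKM + 1) was -0.11 (all genes tested, 0.014), and they spanned -0.53 for Insig1 to 0.31 for Dhcr7, which did not pass. The groups did not overlap in 17 of the 30 genes (56.7%), 13 lower and 4 higher in shMettl3_dox, beside 45.1% of all genes tested (21.5% lower and 23.6% higher).

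**Figure D1:**
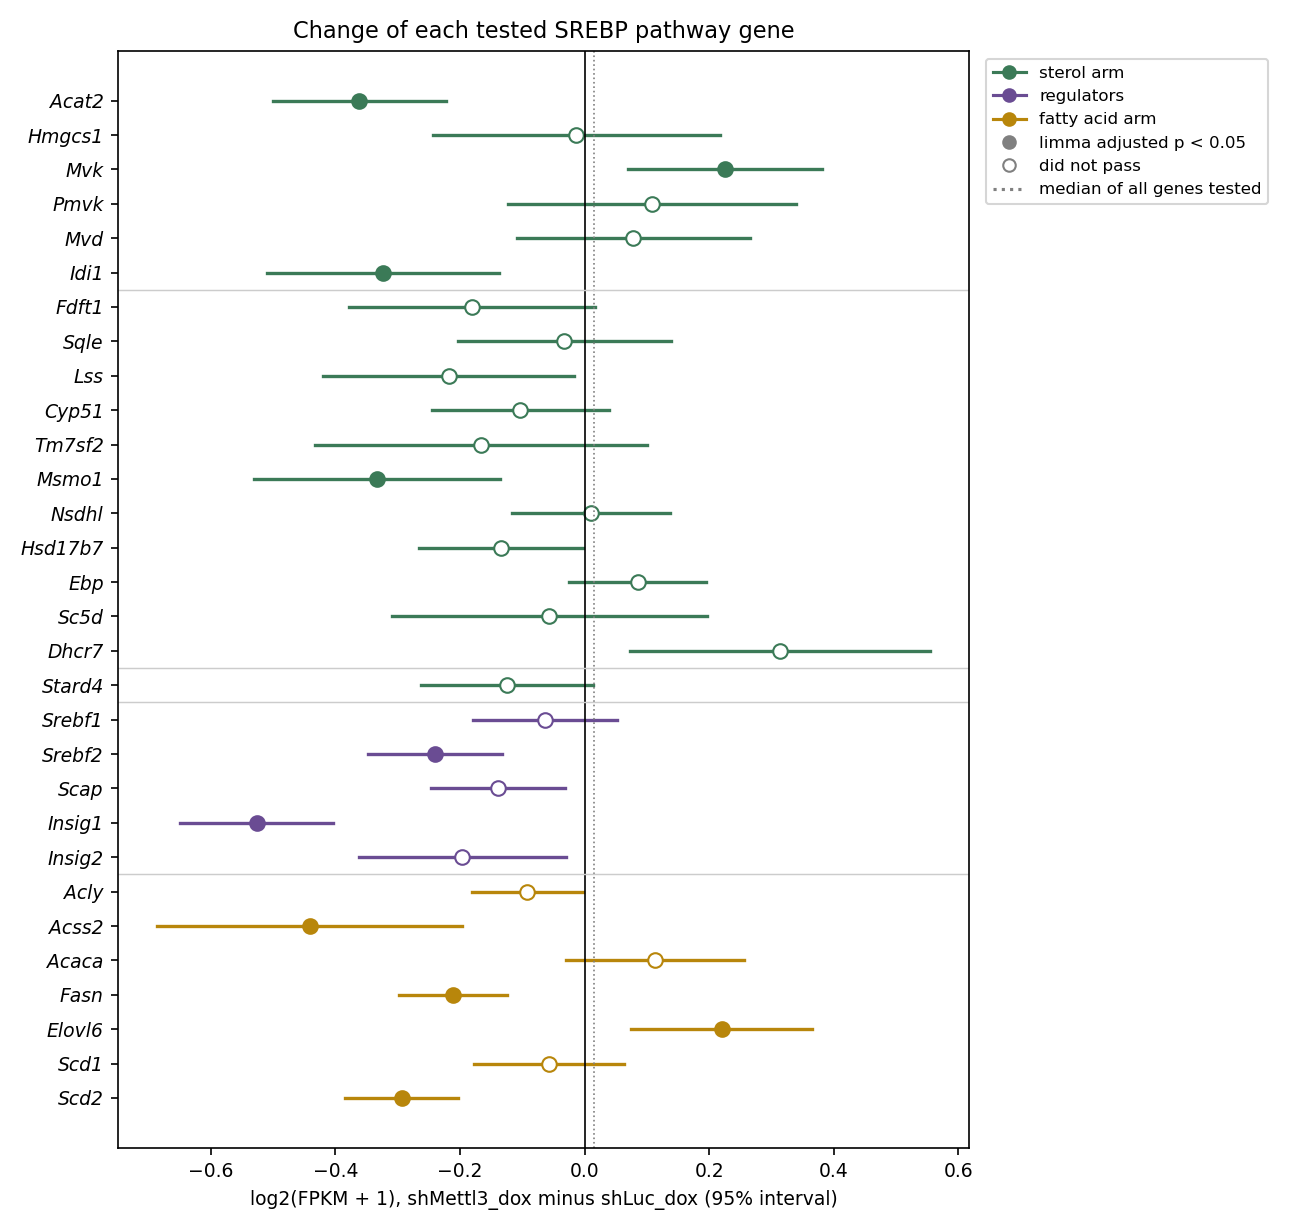
Difference in log2(FPKM + 1), shMettl3_dox minus shLuc_dox, of the 30 tested genes with 95% intervals from limma (x axis), ordered by arm and pathway step (y axis); filled points passed an adjusted p of 0.05, and the dotted line is the median of all genes tested (0.014). All 5 regulators lie below 0, while the sterol arm lies on both sides, with Acat2, Idi1 and Msmo1 past the threshold below 0 and Mvk past it above 0.

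In the sterol arm 3 of 18 tested genes fell (16.7%) and 1 rose (5.56%), a share of falls close to the 13.5% over all genes. In the fatty acid arm 3 of 7 fell and 1 rose, and of the regulators 2 of 5 fell and 0 rose. For the regulators limma gave 4 lower and 0 higher at an unadjusted p under 0.05. Over all 12098 genes tested that threshold gave 2266 lower and 2587 higher. On recovered reads edgeR and DESeq2 also each gave 4 lower and 0 higher regulators. Over all genes tested edgeR gave 16.3% lower and 16.9% higher, and DESeq2 16.5% and 15.6%. The median log2 change was -0.08 in the sterol arm, -0.09 in the fatty acid arm and -0.20 among the regulators. No test of the difference between arms was made. The sterol arm had 1 lower gene without shMettl3_dox replicate 1 or 2, or without shLuc_dox replicate 2 or 3, and 2 without shLuc_dox replicate 1. The summed level of the fatty acid arm was 277, 276 and 279 FPKM in shMettl3_dox, against 316, 315 and 322 FPKM in shLuc_dox. Scd2 alone made up 46.7% of that sum in shMettl3_dox and 50.0% in shLuc_dox. The sterol arm summed to 175, 177 and 178 FPKM in shMettl3_dox, against 189, 189 and 194 FPKM in shLuc_dox, with Acat2 as its most abundant gene per length.

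Promoter sequences of 25 of the 31 genes were found in the RefSeq table (GRCm38.p6), as windows of 250 bases before and 50 after a gene's start. Fdps, Fdft1, Sqle, Scd1, Scd2 and Stard4 had none there. On both strands, CCAAT (the NF-Y box; ATTGG on the other strand) was in a window of 21 of the 25 genes (84.0%), beside 43.9% of the 8703 tested genes with a window and 41.1% of all 27025 genes with one. GGGCGG (the GC box bound by Sp1) was also in 21 (84.0%), beside 72.3% of tested genes and 38.2% of all. CACGTG (an E-box) was in 5 (20%), beside 12.3% and 8.09%. TCACNCCAC, a fixed form of the sterol regulatory element, was in 1 (4%), Hmgcs1, beside 1.42% and 1.44%. Its shortened form TCACNCCA, chosen after the sequences were seen and contained in the longer one, was in Hmgcs1, Msmo1 and Srebf2 (12%), beside 4.33% and 4.97%. A match describes letters in a window and is neither a bound site nor a cause of a change. Only exact letters within the window were searched, so a missing match does not show that a gene lacks the element. The 5 sequences below belong to Insig1, Srebf2 and Fasn, which fell, Mvk, which rose, and Hmgcs1, which matched TCACNCCAC and did not pass. Capitals mark these motifs, and each sequence ends before the gene's start in both RefSeq and GENCODE M21.
Insig1, chr5:28071162-28071362, plus strand: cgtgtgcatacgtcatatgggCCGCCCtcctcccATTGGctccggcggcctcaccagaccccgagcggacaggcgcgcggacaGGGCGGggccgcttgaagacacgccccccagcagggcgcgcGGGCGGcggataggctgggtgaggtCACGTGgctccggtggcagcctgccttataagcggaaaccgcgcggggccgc
Srebf2, chr15:82147019-82147180, plus strand: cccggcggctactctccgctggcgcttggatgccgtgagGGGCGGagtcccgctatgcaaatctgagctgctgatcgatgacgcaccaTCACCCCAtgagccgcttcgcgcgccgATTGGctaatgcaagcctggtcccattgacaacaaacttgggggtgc
Fasn, chr11:120824548-120824797, minus strand: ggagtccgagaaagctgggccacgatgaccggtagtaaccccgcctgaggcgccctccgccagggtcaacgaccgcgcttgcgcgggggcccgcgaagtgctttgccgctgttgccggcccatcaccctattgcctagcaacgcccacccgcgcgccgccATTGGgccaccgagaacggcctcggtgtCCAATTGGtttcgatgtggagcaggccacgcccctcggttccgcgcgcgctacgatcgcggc
Mvk, chr5:114444019-114444268, plus strand: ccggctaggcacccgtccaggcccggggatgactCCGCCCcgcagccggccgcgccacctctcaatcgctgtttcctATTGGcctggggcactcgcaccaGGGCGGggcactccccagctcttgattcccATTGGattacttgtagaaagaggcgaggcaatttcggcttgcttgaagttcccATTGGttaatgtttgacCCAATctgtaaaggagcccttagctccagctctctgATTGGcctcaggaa
Hmgcs1, chr13:119690101-119690350, plus strand: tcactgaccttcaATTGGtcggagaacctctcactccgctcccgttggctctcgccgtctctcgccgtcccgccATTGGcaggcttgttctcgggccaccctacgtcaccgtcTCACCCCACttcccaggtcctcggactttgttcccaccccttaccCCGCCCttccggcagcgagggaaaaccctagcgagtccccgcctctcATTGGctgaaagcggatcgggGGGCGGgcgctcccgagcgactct
NF-Y boxes numbered 5 in the Mvk sequence and 3 each in those of Fasn and Hmgcs1, against 1 each in Insig1 and Srebf2. The printed lengths differ, so these counts are not on an equal footing. Mvk, Fasn and Hmgcs1 are shown over 250 bases, Insig1 over 201 and Srebf2 over 162. The TCACNCCAC match of Hmgcs1 ended 128 bases before the RefSeq start, and the shortened match of Srebf2 154 bases before it. The Insig1 sequence held the only E-box of the 5, and the Fasn sequence held no GC box, with 2 NF-Y boxes overlapping in CCAATTGG.

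Among the regulators, Insig1 fell, with the largest difference of the 30 tested genes in log2(FPKM + 1); by ratio of means and in edgeR and DESeq2 that of Acss2 was larger. Insig1 (ENSMUSG00000045294, mm10 chromosome 5, 28071363 to 28078662, plus strand) encodes the sterol-responsive Insig protein. It was at 10.2, 10.5 and 9.72 FPKM in shMettl3_dox, against 14.3, 15.5 and 15.4 FPKM in shLuc_dox. Every shMettl3_dox library was below every shLuc_dox library, and the spread within groups was small beside the gap. Its mean fell to 10.2 ± 0.411 FPKM in shMettl3_dox, against 15.1 ± 0.670 FPKM in shLuc_dox (SD, n = 3 each), a ratio of 0.674. On the log2(FPKM + 1) scale this was a difference of -0.53 (SE 0.0520, limma adjusted p = 0.00091). Insig2, the relative that is less dependent on SREBP, was at 14.9, 12.3 and 14.0 FPKM in shMettl3_dox, against 16.3, 15.7 and 15.5 FPKM in shLuc_dox. These groups did not overlap either, but the difference of -0.20 in log2(FPKM + 1) did not pass (SE 0.0703, limma adjusted p = 0.0794). On recovered reads it passed, with an adjusted p of 0.0449 by edgeR and 0.0399 by DESeq2. The Insig1 to Insig2 ratio of FPKM was 0.687, 0.859 and 0.692 in shMettl3_dox, against 0.880, 0.987 and 0.994 in shLuc_dox (exact two-sided permutation p = 0.1, the smallest that 3 against 3 can give).

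Srebf2 fell and Srebf1 did not pass. Srebf2 (ENSMUSG00000022463, mm10 chromosome 15, 82147181 to 82205379, plus strand), the factor of the sterol arm, was at 27.4, 27.7 and 25.6 FPKM in shMettl3_dox, against 32.7, 32.1 and 31.1 FPKM in shLuc_dox. All 3 knockdown libraries were below all 3 controls, with a difference of -0.24 in log2(FPKM + 1) (SE 0.0454, limma adjusted p = 0.00922). Srebf1, the factor of the fatty acid arm, was at 30.8, 29.1 and 29.2 FPKM in shMettl3_dox, against 31.1, 32.6 and 29.6 FPKM in shLuc_dox. The groups overlapped, and the difference was -0.063, with a 95% interval of -0.18 to 0.05 (limma adjusted p = 0.382). The table does not separate the Srebf1 isoforms. The Srebf2 to Srebf1 ratio was 0.888, 0.951 and 0.879 in shMettl3_dox, against 1.05, 0.984 and 1.05 in shLuc_dox (exact two-sided permutation p = 0.1). Scap, the escort, was at 26.9, 26.6 and 25.8 FPKM in shMettl3_dox, against 30.7, 28.2 and 28.8 FPKM in shLuc_dox. Its groups did not overlap, and the difference of -0.14 did not pass in limma (adjusted p = 0.0603). The authors' deposited table lists Scap as lower, with a log2 fold change of -0.14 and an adjusted p of 0.0418 there. With edgeR or DESeq2 on recovered reads 4 of the 5 regulators were lower, with Scap and Insig2 added. Over all genes tested 16.3% were lower by edgeR and 16.5% by DESeq2.

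**Figure D2:**
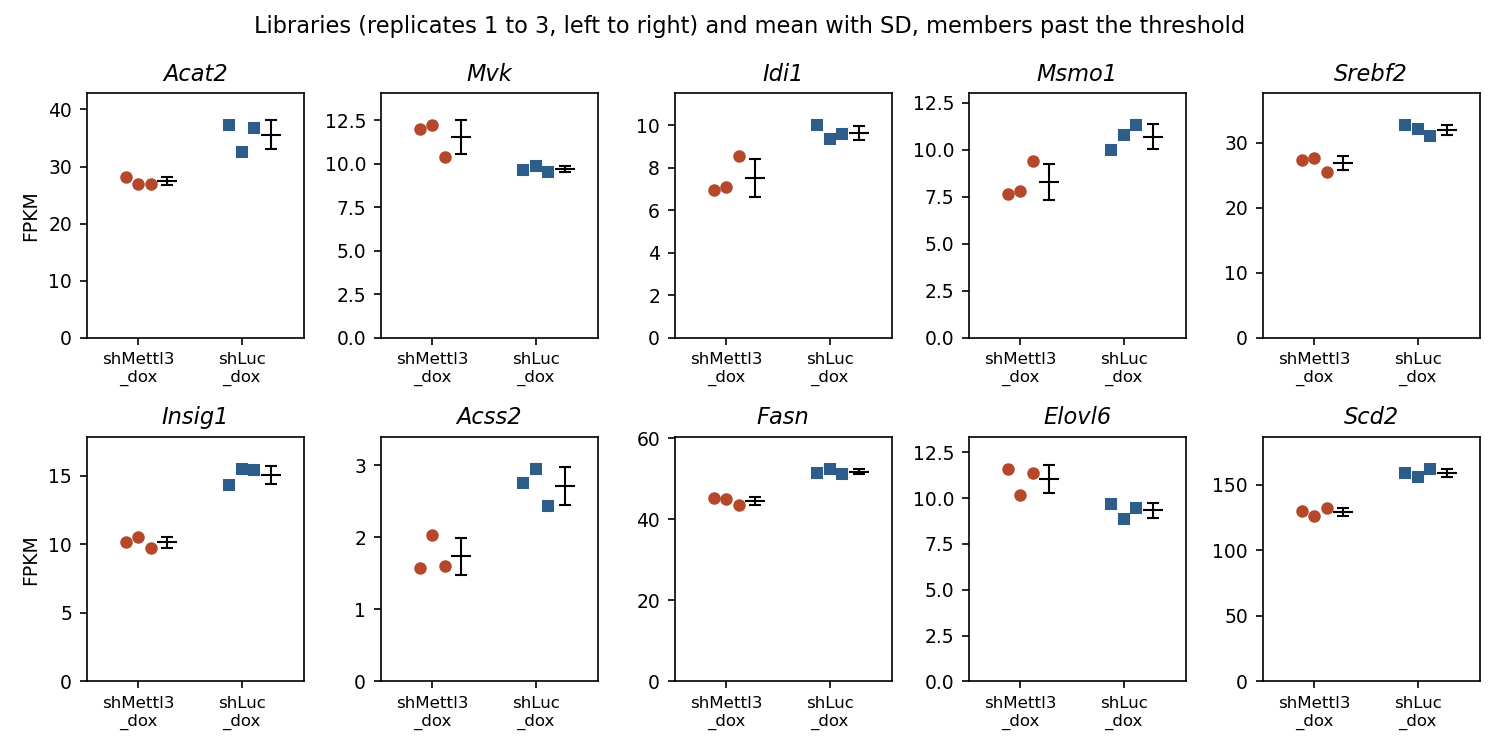
FPKM (y axis, linear from 0) of the 10 genes that passed, in each library (points, replicates 1 to 3 from left to right) with the mean and SD of 3 libraries beside them; shMettl3_dox is left of shLuc_dox in each panel. In all 10 panels the groups do not overlap, and in the panels of Idi1, Msmo1 and Mvk replicate 3 is the shMettl3_dox library nearest to the controls.

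The fatty acid arm runs from acetyl-CoA supply through chain building to desaturation. Scd2 (ENSMUSG00000025203, mm10 chromosome 19, 44293674 to 44306864, plus strand), a stearoyl-CoA desaturase and the most abundant of the 31 genes per length, was at 130, 126 and 132 FPKM in shMettl3_dox, against 159, 156 and 162 FPKM in shLuc_dox. The groups stood well apart, with a mean of 129 ± 2.87 FPKM in shMettl3_dox and 159 ± 2.88 FPKM in shLuc_dox (SD, n = 3 each). On the log2(FPKM + 1) scale Scd2 differed by -0.29 (SE 0.0382, limma adjusted p = 0.00233). Its neighbour Scd1, a desaturase of the same family, was at 22.1, 23.4 and 24.2 FPKM in shMettl3_dox, against 23.2, 24.3 and 25.1 FPKM in shLuc_dox. Those groups overlapped (difference -0.06, 95% interval -0.18 to 0.06, limma adjusted p = 0.444). The Scd2 to Scd1 ratio was 5.89, 5.40 and 5.44 in shMettl3_dox, against 6.83, 6.41 and 6.45 in shLuc_dox (exact two-sided permutation p = 0.1). This and the other 2 ratios were chosen after their values were seen, and all 3 have an adjusted p of 0.1. The related Scd3 and Scd4 were near 0 in both groups.

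Fasn, the fatty acid synthase that builds palmitate, was at 45.1, 45.0 and 43.4 FPKM in shMettl3_dox, against 51.5, 52.4 and 51.2 FPKM in shLuc_dox. The gene (ENSMUSG00000025153) lies on mm10 chromosome 11, 120805846 to 120824547, minus strand, and fell by 0.21 in log2(FPKM + 1) (SE 0.0366, limma adjusted p = 0.00668). With 8626 to 12451 reads per library it is among the deepest measured of the set. Acss2, which makes acetyl-CoA from acetate, was at 1.58, 2.03 and 1.6 FPKM in shMettl3_dox, against 2.75, 2.95 and 2.43 FPKM in shLuc_dox. It had the lowest ratio of means of the tested genes, 0.640, but at this level the pseudocount shrinks the log2(FPKM + 1) difference to -0.44 (limma adjusted p = 0.0204), while edgeR on recovered reads gave -0.66. Of the exon bases of Acss2, 395 (3.89%) overlap Gss on the other strand, which averaged 16.2 FPKM in shMettl3_dox and 23.2 FPKM in shLuc_dox. The sources used here do not give whether counting used strand. Acss2 missed the threshold without shMettl3_dox replicate 1 or without shLuc_dox replicate 1 or 2 (limma adjusted p from 0.0668 to 0.076).

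Elovl6, the elongase that extends palmitate, rose. It was at 11.6, 10.2 and 11.4 FPKM in shMettl3_dox, against 9.66, 8.87 and 9.49 FPKM in shLuc_dox, with all knockdown libraries above all controls (difference 0.22, SE 0.0613, limma adjusted p = 0.0368). Elovl6 passed without shMettl3_dox replicate 2 and missed the threshold without each of the other 5 libraries (limma adjusted p from 0.0698 to 0.118) and with protein-coding scaling (0.0748). Acly, which makes acetyl-CoA from citrate, was at 60 to 62.7 FPKM in shMettl3_dox and 64.1 to 66.4 FPKM in shLuc_dox, without overlap (difference -0.09, limma adjusted p = 0.115). Acaca, the acetyl-CoA carboxylase that commits carbon to fatty acids, was at 5.83 to 6.35 FPKM in shMettl3_dox and 5.22 to 5.86 FPKM in shLuc_dox, with overlap (0.11, limma adjusted p = 0.214). Neighbouring steps of this arm thus had differences of either sign.

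In the mevalonate part of the sterol arm 2 of 6 tested genes fell (33.3%) and 1 rose (16.7%). Over all genes tested 13.5% fell and 14.6% rose. Acat2 (ENSMUSG00000023832, mm10 chromosome 17, 12942890 to 12960747, minus strand), the cytosolic thiolase that joins acetyl-CoA units, was at 28.2, 27.0 and 27.0 FPKM in shMettl3_dox, against 37.2, 32.6 and 36.8 FPKM in shLuc_dox. The groups stood apart, with a difference of -0.36 in log2(FPKM + 1) (SE 0.0588, limma adjusted p = 0.00526). Its close relative Acat3 averaged 0.337 FPKM in shMettl3_dox and 0.301 FPKM in shLuc_dox. Idi1, the isomerase that makes dimethylallyl pyrophosphate, was at 6.95, 7.11 and 8.56 FPKM in shMettl3_dox, against 10.0, 9.35 and 9.58 FPKM in shLuc_dox (difference -0.32, SE 0.0788, limma adjusted p = 0.0232). Its groups did not overlap, but replicate 3 of shMettl3_dox lay nearer to the controls than to the other knockdown libraries. Mvk, the kinase that phosphorylates mevalonate, was at 12, 12.2 and 10.4 FPKM in shMettl3_dox, against 9.64, 9.89 and 9.55 FPKM in shLuc_dox (difference 0.23, SE 0.0659, limma adjusted p = 0.043). Again replicate 3 was the knockdown library nearest to the controls.

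Hmgcs1 is the synthase of the step after Acat2, and its TCACNCCAC match is printed above. It was at 7.71, 8.45 and 9.95 FPKM in shMettl3_dox, against 8.81, 9.51 and 7.98 FPKM in shLuc_dox. The groups overlapped, and the difference of -0.013 had a 95% interval of -0.24 to 0.22 (limma adjusted p = 0.939). Pmvk, the next kinase after Mvk, was at 13.7, 13.2 and 10.5 FPKM in shMettl3_dox, against 11.9, 11.7 and 10.8 FPKM in shLuc_dox (0.11, limma adjusted p = 0.455). Mvd, the decarboxylase, was at 6.86 to 8.52 FPKM in shMettl3_dox and 6.77 to 7.24 FPKM in shLuc_dox (0.08, limma adjusted p = 0.505). Fdps, which makes farnesyl pyrophosphate, did not reach the filter, with 6 to 41 recovered reads per library and 0.386, 0.380 and 0.0707 FPKM in shMettl3_dox, against 0.222, 0.331 and 0.353 FPKM in shLuc_dox. Of its exon bases 26.7% are shared with Gm43738 on the same strand, so its reads are uncertain. Without shMettl3_dox replicate 3, Pmvk passed as higher (limma adjusted p = 0.0339). Idi1 also passed without that library and missed the threshold without each other one (limma adjusted p from 0.0565 to 0.0794), and so did Mvk (0.0944 to 0.129). Mvk also missed it with protein-coding scaling (limma adjusted p = 0.0664), quantile normalization (0.0554), no intensity trend (0.0578) and no filter on low values (0.0961). By DESeq2 on recovered reads its adjusted p was 0.0637. Of 16 alternatives, 6 kept the call of Mvk.

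From squalene to cholesterol 1 of 11 genes fell (9.09%) and 0 rose, beside 13.5% lower and 14.6% higher among all genes tested. For these 11, limma gave 3 lower and 1 higher at an unadjusted p under 0.05, beside 2266 and 2587 of all 12098 genes tested. On recovered reads edgeR and DESeq2 each gave 2 lower, Msmo1 and Lss, and 1 higher, Dhcr7. Over all genes tested edgeR gave 16.3% lower and 16.9% higher, and DESeq2 16.5% and 15.6%. Msmo1 (ENSMUSG00000031604, mm10 chromosome 8, 64718139 to 64733792, minus strand), the sterol methyl oxidase, was at 7.66, 7.82 and 9.41 FPKM in shMettl3_dox, against 9.97, 10.8 and 11.3 FPKM in shLuc_dox. The groups did not overlap, with a difference of -0.33 in log2(FPKM + 1) (SE 0.0837, limma adjusted p = 0.0258). Msmo1 missed the threshold without shMettl3_dox replicate 1 or 2 or shLuc_dox replicate 2 or 3 (limma adjusted p from 0.0744 to 0.0819). Dhcr7, the reductase of the last step to cholesterol, had the largest difference in the other direction. It was at 3.74, 4.65 and 4.80 FPKM in shMettl3_dox, against 3.32, 3.69 and 2.99 FPKM in shLuc_dox, without overlap, a log2(FPKM + 1) difference of 0.31 that did not pass (SE 0.102, limma adjusted p = 0.0591). It passed without shMettl3_dox replicate 1 (limma adjusted p = 0.0329).

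Lss, the cyclase that makes lanosterol, was at 4.14, 3.86 and 3.24 FPKM in shMettl3_dox, against 4.49, 4.30 and 4.72 FPKM in shLuc_dox, without overlap (-0.22, limma adjusted p = 0.101). The authors' deposited table lists it as lower, with an adjusted p of 0.043. Lss also passed as lower on recovered reads, with an adjusted p of 0.0271 by edgeR and 0.0157 by DESeq2. Fdft1, the squalene synthase, was at 10.7, 10.4 and 12.9 FPKM in shMettl3_dox, against 12.8, 12.4 and 13.7 FPKM in shLuc_dox (-0.18, limma adjusted p = 0.155). It passed as lower without shMettl3_dox replicate 3 (limma adjusted p = 0.0171). Of its exon bases 774 (18.3%) overlap the cathepsin gene Ctsb on the other strand, at 59.1 FPKM in shMettl3_dox and 54.7 FPKM in shLuc_dox, so its reads are uncertain. Sqle, the epoxidase that is a main control point of this part, was at 8.93 to 9.53 FPKM in shMettl3_dox and 8.47 to 10.2 FPKM in shLuc_dox. Its difference of -0.032 had a 95% interval of -0.20 to 0.14 (limma adjusted p = 0.777).

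The remaining steps had no call. Cyp51, the lanosterol demethylase, averaged 10.6 ± 0.449 FPKM in shMettl3_dox and 11.4 ± 0.775 FPKM in shLuc_dox (-0.10). Hsd17b7, a sterol ketoreductase, averaged 6.46 ± 0.316 FPKM in shMettl3_dox and 7.19 ± 0.276 FPKM in shLuc_dox, and its groups did not overlap (-0.13, limma adjusted p = 0.117). Nsdhl, which removes the carboxyl group left by Msmo1, averaged 9.54 ± 0.468 FPKM in shMettl3_dox and 9.47 ± 0.373 FPKM in shLuc_dox (0.0097). Ebp, the sterol isomerase, averaged 12.7 ± 0.268 FPKM in shMettl3_dox and 11.9 ± 0.478 FPKM in shLuc_dox, without overlap (0.085, limma adjusted p = 0.22). Sc5d, the sterol desaturase, averaged 8.04 ± 1.22 FPKM in shMettl3_dox and 8.38 ± 0.807 FPKM in shLuc_dox (-0.057). Tm7sf2, a sterol reductase and the member tested with the fewest reads, averaged 1.46 ± 0.217 FPKM in shMettl3_dox and 1.75 ± 0.193 FPKM in shLuc_dox (-0.17). Of its exon bases 12.1% are shared with Vps51 on the same strand. Stard4, a sterol transfer protein, averaged 15.6 ± 0.789 FPKM in shMettl3_dox and 17.1 ± 0.961 FPKM in shLuc_dox (-0.12, limma adjusted p = 0.16). For the 20 genes of the set that did not pass, the 95% intervals of the log2(FPKM + 1) difference reached at most from -0.43 (Tm7sf2) to 0.55 (Dhcr7). In 14 of the 20 the interval held 0, in 5 it lay below 0 and in 1 above it, before adjustment.

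**Figure D3:**
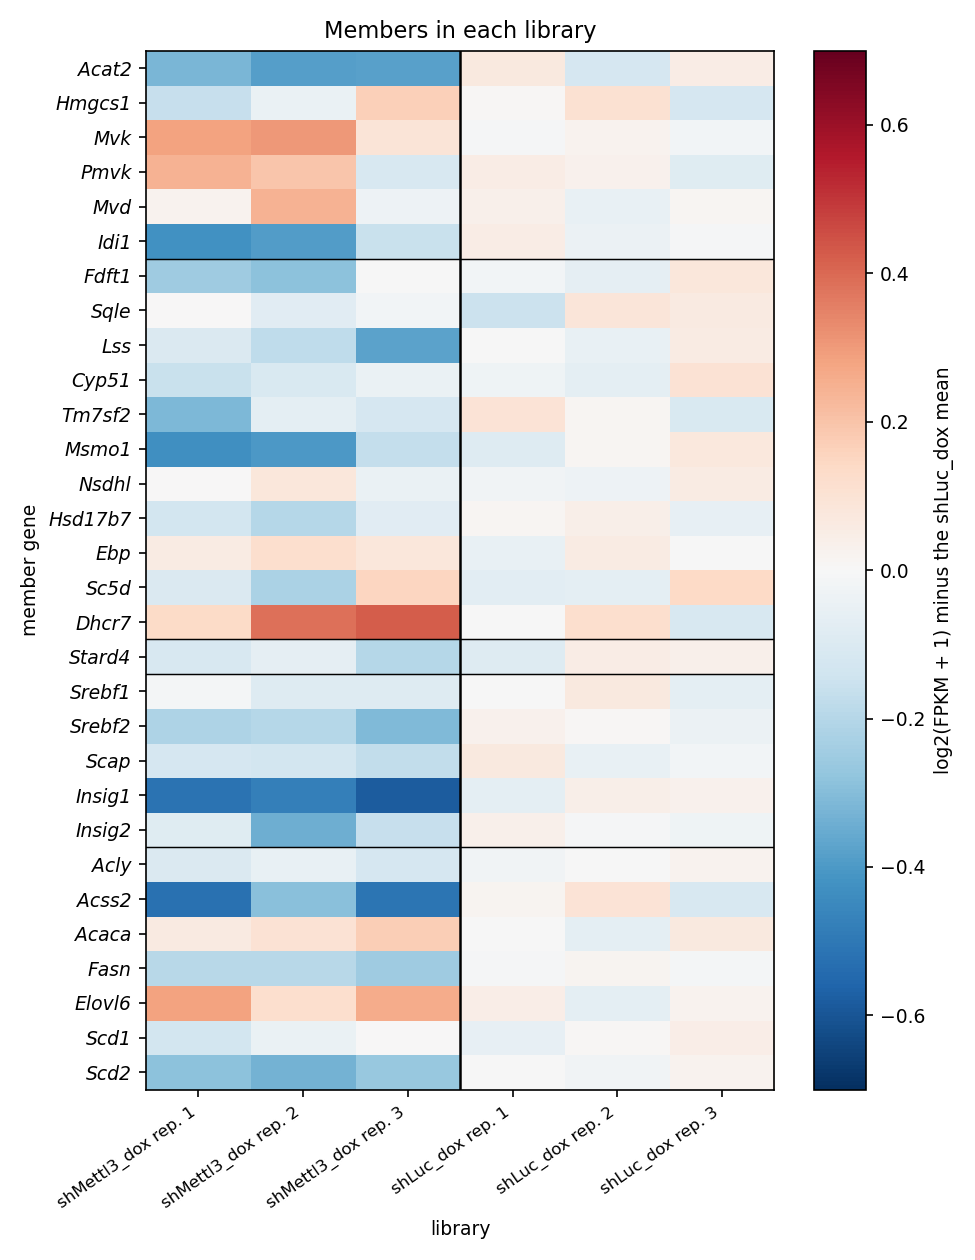
Log2(FPKM + 1) minus the mean of the 3 shLuc_dox libraries for the 30 tested genes (rows, in pathway order, lines between groups of steps) in each library (columns, shMettl3_dox left of the line); blue is lower and red higher. Insig1 and Acss2 are blue in all 3 shMettl3_dox libraries, while Mvk, Pmvk, Idi1, Fdft1 and Msmo1 are nearer to 0 in replicate 3 than in replicates 1 and 2.

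In shMettl3_dox replicate 3 Hmgcs1, Idi1, Fdft1, Cyp51, Msmo1, Hsd17b7, Sc5d and Dhcr7 were above both other knockdown libraries, and 6 other genes of the sterol arm were below both. This library lay outside the other 2 in 77.8% of the sterol arm and 73.3% of the 30 genes, beside 78.7% of all genes tested. Without it, 4 genes of the sterol arm were lower and 2 higher, with Fdft1 and Pmvk added, in place of 3 and 1.

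Lists of other genes of the pathway, 54 genes in all and none of them among the 31, held 51 tested genes. Of these 5 fell (9.80%) and 6 rose (11.8%), beside 13.5% and 14.6% of all genes tested. Among the genes for SREBP cleavage, both Golgi proteases rose. Mbtps2, a Golgi protease that releases SREBPs, averaged 8.6 ± 0.696 FPKM in shMettl3_dox and 6.38 ± 0.197 FPKM in shLuc_dox (0.38, limma adjusted p = 0.00638). Mbtps1, the protease that cuts before it, averaged 21.5 ± 0.662 FPKM in shMettl3_dox and 19.2 ± 0.124 FPKM in shLuc_dox (0.15, limma adjusted p = 0.0291). Mbtps1 missed the threshold with protein-coding scaling (limma adjusted p = 0.0976) and without shMettl3_dox replicate 1 or any 1 shLuc_dox library (0.0717 to 0.0936).

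For 9 genes that use isoprenoid products, limma at an unadjusted p under 0.05 gave 0 lower and 3 higher. Over all 12098 genes tested that threshold gave 2266 lower and 2587 higher. By edgeR and by DESeq2 the list also had 0 lower and 3 higher. Over all genes tested edgeR gave 16.3% lower and 16.9% higher, and DESeq2 16.5% and 15.6%. Beside 14.6% higher and 13.5% lower among all genes tested, 0 of these 9 fell and 2 rose (22.2%). They were Nus1 (26.3 ± 1.11 FPKM in shMettl3_dox and 20.9 ± 0.656 FPKM in shLuc_dox) and Dhdds (11.2 ± 0.546 FPKM in shMettl3_dox and 8.94 ± 0.452 FPKM in shLuc_dox), the 2 subunits of the enzyme that makes dolichol precursors. Pdss1, a subunit of the synthase of the ubiquinone side chain, averaged 5.06 ± 0.869 FPKM in shMettl3_dox and 4.01 ± 0.0449 FPKM in shLuc_dox (0.27, limma adjusted p = 0.0975), and passed without shMettl3_dox replicate 2 (0.0422).

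Among 15 tested genes of fatty acid desaturation, elongation, activation and NADPH or citrate supply, 2 fell and 1 rose. These were 13.3% and 6.67%, beside 13.5% and 14.6% of all genes tested. Fads2, the desaturase of polyunsaturated fatty acids, averaged 30.4 ± 1.08 FPKM in shMettl3_dox and 48.2 ± 2.74 FPKM in shLuc_dox (-0.65, limma adjusted p = 0.000442). Idh1, which makes cytosolic NADPH, averaged 15.9 ± 0.627 FPKM in shMettl3_dox and 23.8 ± 0.422 FPKM in shLuc_dox (-0.56, limma adjusted p = 0.000402). Me1, another source of NADPH, rose to 20.2 ± 1.40 FPKM in shMettl3_dox, against 14.9 ± 0.184 FPKM in shLuc_dox (0.42, limma adjusted p = 0.0025). The falls of Fads2 and Idh1 were larger on the log2(FPKM + 1) scale than that of any of the 31 genes.

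In glycerolipid and phospholipid synthesis 1 of 11 genes fell (9.09%) and 0 rose, beside 13.5% and 14.6% of all genes tested. Here limma gave 2 lower and 1 higher at an unadjusted p under 0.05, and edgeR and DESeq2 each 1 lower and 1 higher. Over all 12098 genes tested, 2266 were lower and 2587 higher at an unadjusted limma p under 0.05. There edgeR gave 16.3% lower and 16.9% higher, and DESeq2 16.5% and 15.6%. Lpin1, a phosphatidate phosphatase, averaged 5.13 ± 0.412 FPKM in shMettl3_dox and 9.64 ± 0.304 FPKM in shLuc_dox (-0.80, limma adjusted p = 0.000392). Agpat2 averaged 11.9 ± 2.38 FPKM in shMettl3_dox and 8.82 ± 0.502 FPKM in shLuc_dox (limma adjusted p = 0.0768), and passed as higher without shMettl3_dox replicate 3 (0.00245). Pcyt1a, of phosphatidylcholine synthesis, averaged 10.0 ± 0.208 FPKM in shMettl3_dox and 10.9 ± 0.124 FPKM in shLuc_dox (limma adjusted p = 0.106). In the list of sterol trafficking and esterification 2 of 10 fell (20%) and 0 rose, beside 13.5% and 14.6% of all genes tested. For this list limma gave 3 lower and 1 higher at an unadjusted p under 0.05, edgeR 3 and 1, and DESeq2 3 and 0. It also held Aacs, which does neither. Aacs, the acetoacetyl-CoA synthetase that feeds acetoacetate into lipid synthesis, averaged 16.6 ± 0.708 FPKM in shMettl3_dox and 20.9 ± 0.802 FPKM in shLuc_dox (-0.32, limma adjusted p = 0.00472). Gramd1b, a sterol transfer protein, averaged 2.36 ± 0.247 FPKM in shMettl3_dox and 3.11 ± 0.0685 FPKM in shLuc_dox (-0.29, limma adjusted p = 0.0356), and missed the threshold without each library except shMettl3_dox replicate 3 (0.0837 to 0.105). Tmem97, a sterol-responsive membrane protein, averaged 46.7 ± 3.24 FPKM in shMettl3_dox and 40.7 ± 1.62 FPKM in shLuc_dox (0.19, limma adjusted p = 0.0514), and passed without shMettl3_dox replicate 2 (0.0225).

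The authors' deposited table of lower genes held 10 of the 30 tested genes (33.3%), beside 13.8% of all genes tested. They were the 8 that fell here with Scap and Lss. It was made from these same libraries and is no independent evidence. The log2 fold changes in the authors' deposited table were -0.56 for Insig1, -0.64 for Acss2, -0.29 for Scd2, -0.21 for Fasn and -0.37 for Acat2.

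**Figure D4:**
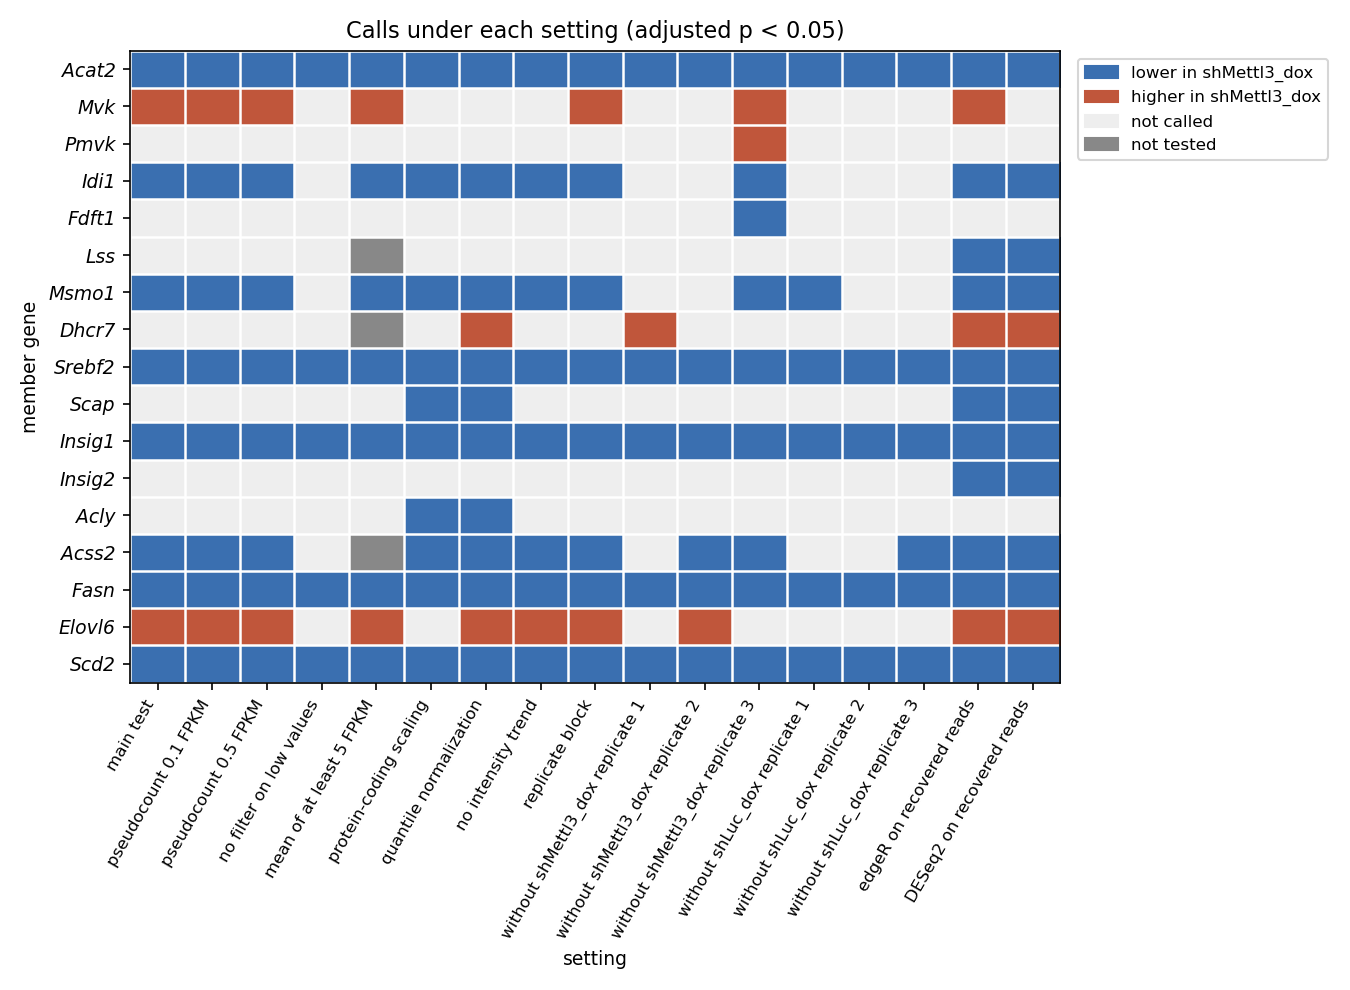
Calls at an adjusted p under 0.05 (colours) for the 17 genes called under at least 1 of the 17 settings (columns, the main test at the left). Acat2, Srebf2, Insig1, Fasn and Scd2 are called lower in every column, and no gene is called in both directions.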

How the data were processed

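Expression was measured by RNA-seq in 3 shMettl3_dox and 3 shLuc_dox libraries. One of the authors' tables gives FPKM per gene and library as deposited. The authors' other table covers 1960 genes lower after the knockdown, and in it the authors give a normalized count per library (a signal scaled between libraries), log2 fold changes, p-values and adjusted p-values. Per the submitters' processing notes, mm10, STAR, fastp, DESeq2 and featureCounts 1.5.3 were used, with no roles given. Columns of other samples numbered 0.

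Whole reads were recovered from the authors' normalized counts (100% within 0.01 of a read). With GENCODE M21 exon lengths, the deposited FPKM gave whole reads within 0.001 for 96.7% of the 26328 genes above 0. For 872 genes another length was used, so their reads are uncertain.

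Tests used limma 3.58.1 in R 4.3.3 (eBayes with trend, two-sided) on log2(FPKM + 1). Genes averaging 1 FPKM or more entered, with Benjamini-Hochberg adjustment over all of them and a threshold of 0.05. This scale understates the change of low genes. Recovered reads were tested with edgeR 4.0.16 (quasi-likelihood) and DESeq2 1.42.0 as alternatives. The scripts were tested on simulated data, with 50 genes changed at each fold. There limma passed 6% of genes changed 1.2-fold, 64% at 1.5-fold and 84% at 2-fold (edgeR 28%, 78% and 92%). Fewer genes were changed there than were called in the data, so these shares do not carry over directly. A gene that did not pass is not shown to be unchanged. The members and lists were chosen with earlier results of these data known. Every member is named, and of each other list up to 3 genes with the smallest unadjusted p. For 1 gene of these lists the result is not reported here.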

Additional observations from a re-analysis of the deposited data

How the results depend on the processing

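Of 16 alternatives, all 16 left Insig1, Srebf2, Scd2, Fasn and Acat2 past the threshold. The other 5 called genes lost it under at least 1, and 7 more gained it under at least 1. No called gene changed sign. Without the filter on low values the sterol arm had 1 lower and 0 higher and the fatty acid arm 0 higher. With protein-coding scaling the sterol and fatty acid arms had 0 higher, and 9 other pathway genes were lower in place of 5, with a split over all genes of 1926 lower and 1263 higher (main test, 1633 and 1763). Without the intensity trend the sterol arm had 0 higher. With edgeR it had 2 higher, the regulators 4 lower and the other pathway genes 10 higher in place of 6. With DESeq2 the regulators had 4 lower. Over all genes tested edgeR gave 16.3% lower and 16.9% higher, and DESeq2 16.5% lower and 15.6% higher. Leaving out 1 library gave 1 to 4 lower and 0 to 2 higher in the sterol arm, 2 to 3 lower and 0 to 1 higher in the fatty acid arm, 1057 to 1658 lower and 1021 to 1855 higher over all genes. The cause of these shifts was not tested, beyond fewer libraries or more genes tested.

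Among genes that did not pass, the log2 change took the other sign when 1 library was left out for Hmgcs1 (-0.1035 to 0.0614), Mvd (-0.0038 to 0.1344), Sqle (-0.1068 to 0.0111), Nsdhl (-0.0242 to 0.0391) and Sc5d (-0.1612 to 0.0250). Nsdhl also did so with protein-coding scaling (-0.0276), quantile normalization (-0.0043) and DESeq2 (-0.0035). Same-numbered libraries deviated together little (r from -0.0068 to 0.0631). The labels do not say whether the numbers pair libraries, and with 3 libraries per group these values cannot settle it. The replicate block gave 3 lower and 1 higher in the sterol arm, 3 and 1 in the fatty acid arm, 2 and 0 among the regulators, and 1525 and 1676 over all genes. Of the other named genes, under the block Gramd1b lost its call (limma adjusted p = 0.0543), and Tmem97 (0.0278) and Agpat2 (0.045) gained one. Low numbers of reads limit Fdps and Tm7sf2. Both share exon bases with another gene on the same strand (26.7% and 12.1%), and why their reads are few was not tested.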
